A study of Mus musculus with 6 samples.

Results

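The study was examined for 10 regulators of cell cycle arrest and senescence: the CDK inhibitors Cdkn2a, Cdkn2b, Cdkn2c, Cdkn1a and Cdkn1b, the p53 gene Trp53 and its antagonist Mdm2, the retinoblastoma gene Rb1, and the D-type cyclins Ccnd1 and Ccnd2. They were chosen by symbol, and all 10 were found among the 35976 genes of the count table and passed the filter on low counts, as did 13761 genes in all. The libraries are polyadenylated RNA of mouse embryonic chondrocytes, the matrix-forming cells of cartilage, taken from hind limb articular cartilage at embryonic day 18.5 on a C57BL/6 x 129S4/SvJae background. The cells had grown on tissue culture plastic for 16 population doublings with doxycycline at 2 µg/ml in both groups throughout. The H3K9M group (replicates 1, 3 and 5) expressed a histone H3.3 transgene with lysine 9 changed to methionine, which suppresses methylation at that residue, and the H3WT group (replicates 1, 2 and 4) expressed wild-type H3.3 from an inducible transgene in the same way. The promoter driving the transgenes is not given in the sources used here. Nor is it said there whether replicates came from separate animals or cultures, so p-values measure the spread between these libraries, which may be technical.

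Cultured cells leave the division cycle when CDK inhibitors outweigh cyclin-bound kinases. D-type cyclins with CDK4 or CDK6 phosphorylate the retinoblastoma protein and release E2F factors, which switch on genes of DNA replication. INK4 proteins block those kinases, p21 and p27 bind cyclin-CDK complexes, and p53 raises p21 under stress while MDM2 degrades p53. Long expansion of many cell types is known to raise the INK4 genes and p21, and the Cdkn2a locus is known as a target of repressive chromatin.

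The libraries held between 15113675 and 19606082 counts, and a member had between 173 and 19424 counts in a library. Replicates differed by more than sampling, which cannot show whether they came from separate animals or cultures. All 6 were counted as separate samples. The chi-square per degree of freedom was 26.5 between H3K9M replicates 1 and 5 and 33.0 between H3WT replicates 1 and 4. It was 73.3 and 77.0 for the pairs with H3K9M replicate 3, and 103 and 114 for the pairs with H3WT replicate 2. Each of these 2 libraries thus lay farthest from the others of its group, and values without them are given beside the results they touch. On the first principal component of all tested genes (35.5% of the variance) they scored 51.04 and 49.1. H3K9M replicates 1 and 5 scored -2.82 and 10.4, and H3WT replicates 1 and 4 scored -56.2 and -51.5. On the second component (28.8% of the variance) H3K9M replicates 1, 3 and 5 scored 38.4, 39.8 and 19.045. H3WT replicates 1, 2 and 4 scored -11.4, -71.5 and -14.4. Every H3K9M library thus lay above every H3WT library on the second component. All 10 chondrocyte markers were detected, with Col2a1 at 4913 to 14110 CPM (counts scaled to a common library size by the TMM method). All 10 had a negative log2 fold change between H3K9M and H3WT, with a median of -0.82. The median was -0.70 without H3K9M replicate 3, -0.26 without H3WT replicate 2 and -0.24 without both, and 9 of the 10 were highest in H3WT replicate 2. Their summed level was 7320 to 11444 CPM in H3K9M and 7221 to 19055 CPM in H3WT. The 6 fibroblast markers summed to 11702 to 29800 CPM in H3K9M and 9758 to 34418 CPM in H3WT. Blood markers summed to 8.04 to 16.5 CPM in H3K9M and 3.84 to 6.29 CPM in H3WT. The part of these cell types in the results was not tested. Of the blood markers Ptprc and Adgre1 were at 0 in every library, and of the endothelial markers Cdh5, Kdr and Emcn had at most 3 counts in any.

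None of the 10 members passed the test between H3K9M and H3WT at an adjusted p under 0.05, by the quasi-likelihood test of edgeR with p-values adjusted over 13761 genes by the Benjamini-Hochberg method. That was also true of every other gene tested (0% called). DESeq2 and limma-voom called 0 members as well, while DESeq2 called 390 genes (2.84%) and limma-voom 0. At an unadjusted p under 0.05 there was 1 member, Cdkn1b, against 1677 genes (12.2%). The H3K9M and H3WT libraries overlapped in all 10 members, where 19.4% of all tested genes had groups that did not overlap. The median log2 fold change (H3K9M minus H3WT) was 0.10 over the members and -0.0029 over all tested genes. In bulk RNA, a smaller share of cells in a given state and less RNA per cell cannot be told apart.

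**Figure D1:**
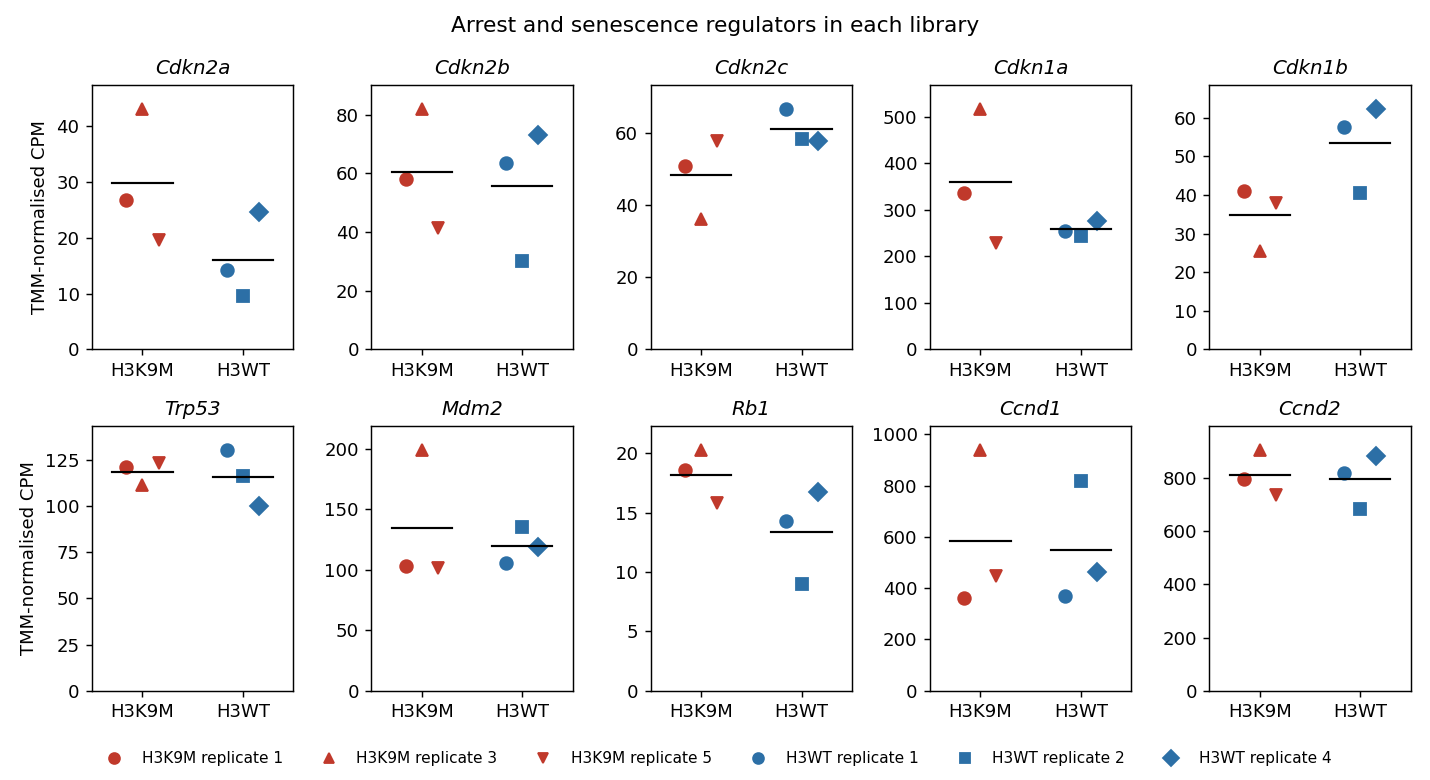
TMM-normalised CPM of each of the 10 genes (y axis, from 0) in the 3 H3K9M libraries (red) and the 3 H3WT libraries (blue), with the group mean as a bar. H3K9M replicate 3 (upward triangle) is highest for 7 of the 10 genes, and the 2 groups overlap for every gene.

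Per kilobase of the longest annotated transcript, the genes were placed in 3 tiers by their median, and the means of both groups kept these tiers. Cdkn1a, Ccnd2 and Ccnd1 had the highest levels, with medians over the 6 libraries of 128, 128 and 122 normalised reads per kilobase (RPKM), and their order differed between libraries. Cdkn2b (43.8), Trp53 (36.3), Mdm2 (35.8), Cdkn2a (24.8) and Cdkn2c (23.4) formed the middle tier. Within it, Mdm2 was above Cdkn2a in all 6 libraries although their ranges overlapped, and the other neighbours changed places between libraries. Cdkn1b (8.94) and Rb1 (3.49) were lowest, in that order in all 6 libraries, and their ranges did not overlap. The tiers were not fully separate, as Cdkn2a in H3WT replicate 2 (10.6) lay below Cdkn1b in H3WT replicate 4 (13.7). The members also varied unequally between libraries. The highest library held 4.54 times the CPM of the lowest for Cdkn2a, 2.72 times for Cdkn2b and 2.59 times for Ccnd1, against 1.32 times for Ccnd2 and 1.30 times for Trp53. The median over all tested genes was 1.82 times, and 18.2% of them varied more than Cdkn2a.

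Among the INK4 inhibitors, Cdkn2a had the highest mean in H3K9M relative to H3WT of any member. This gene (chr4:89274471-89294653, minus strand, GRCm38) has 2 annotated transcripts with separate first exons. The one from the upstream start encodes p19ARF, which binds MDM2 and so protects p53, and the one from the downstream start encodes p16INK4a, which binds CDK4 and CDK6. A gene count adds them together and cannot tell one from the other. The sequences just before the 2 starts are shown because the count is fed by both. They come from RefSeq (GRCm38.p6) and are read 5′ to 3′ on the minus strand. The window before the downstream start lies within the span of the transcript from the upstream start. Each window stops before the first annotated base of the transcript from its own start:
Cdkn2a upstream start, chr4:89294654-89294869: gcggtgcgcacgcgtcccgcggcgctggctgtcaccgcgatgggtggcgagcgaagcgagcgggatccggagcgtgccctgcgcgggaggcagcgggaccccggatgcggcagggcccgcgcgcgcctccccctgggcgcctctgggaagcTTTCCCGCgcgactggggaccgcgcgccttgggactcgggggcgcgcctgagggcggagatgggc
Cdkn2a downstream start, chr4:89282193-89282442: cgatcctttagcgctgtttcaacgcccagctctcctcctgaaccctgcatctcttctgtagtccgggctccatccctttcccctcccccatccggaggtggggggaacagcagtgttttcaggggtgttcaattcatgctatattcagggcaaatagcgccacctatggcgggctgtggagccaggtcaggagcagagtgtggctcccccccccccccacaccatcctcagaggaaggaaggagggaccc
Capitals mark a match to 1 of 4 E2F motifs searched on both strands (TTTCCCGC, TTTGGCGC, TTTCGCGC and TTTGCCGC). Such a match was found within 250 bases before 1.86% of 32851 annotated starts, and no match lay before the downstream start. A match describes letters only.

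Cdkn2a had 26.8, 43.1 and 19.6 CPM in replicates 1, 3 and 5 of H3K9M. The H3WT libraries, replicates 1, 2 and 4, had 14.1, 9.50 and 24.7 CPM. The highest library was H3K9M replicate 3 and the lowest H3WT replicate 2, while H3WT replicate 4 lay above H3K9M replicate 5. The means were 29.8 ± 12.02 and 16.1 ± 7.78 CPM (SD, n = 3 each), a log2 fold change of 0.89 (SE 0.41, edgeR adjusted p 0.432). The interval (95%) ran from 0.958-fold to 3.59-fold. Leaving out H3K9M replicate 3 gave 0.54, leaving out H3WT replicate 2 gave 0.63, and leaving out both gave 0.27.

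Cdkn2b (chr4:89306299-89311039), its neighbour on the same strand, encodes p15INK4b, an inhibitor of the same kinases that TGF-beta is known to induce. It had 58.3, 82.0 and 41.3 CPM in H3K9M replicates 1, 3 and 5, against 63.6, 30.1 and 73.0 CPM in H3WT replicates 1, 2 and 4. The same 2 libraries held the extremes as for Cdkn2a, and the groups overlapped widely. The log2 fold change was 0.12 (SE 0.37, edgeR adjusted p 0.930), and it turned to -0.15 without H3K9M replicate 3 and -0.16 without H3WT replicate 2. Cdkn2c (chr4:109660876-109667189), which encodes p18INK4c, was lowest in the library where Cdkn2a was highest. It had 50.7, 36.1 and 57.8 CPM in H3K9M and 66.6, 58.4 and 57.8 CPM in H3WT, in the same order of replicates. Its log2 fold change was -0.34 (SE 0.19, edgeR adjusted p 0.495), and -0.16 without that library.

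The share of Cdkn2a within the Cdkn2a and Cdkn2b pair did separate the groups. Counted per kilobase, Cdkn2a made up 41.7%, 44.9% and 42.5% in replicates 1, 3 and 5 of H3K9M, against 25.7%, 32.8% and 34.4% in replicates 1, 2 and 4 of H3WT. Every H3K9M library lay above every H3WT library, and the means were 43.0% ± 1.71 and 31.0% ± 4.67 (SD, n = 3 each). The difference of 12.04 percentage points had p = 0.1 in a two-sided exact permutation test, which is the smallest value that 3 libraries against 3 can give and is above 0.05. It was 9.38 to 13.8 points when any 1 library was left out, and 12.01 without both outlying libraries. The share was 44.9% and 42.5% in H3K9M replicates 3 and 5, where Cdkn2a itself was at 43.1 and 19.6 CPM. Ccnd2 took 47.4% ± 10.2 of the Ccnd1 and Ccnd2 pair in H3K9M and 47.6% ± 12.7 in H3WT (exact permutation p = 0.9), and these 2 shares are the only ones that were tested. Adjusted over both by the Benjamini-Hochberg method, the p-values were 0.2 for the Cdkn2a share and 0.9 for the Ccnd2 share.

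**Figure D2:**
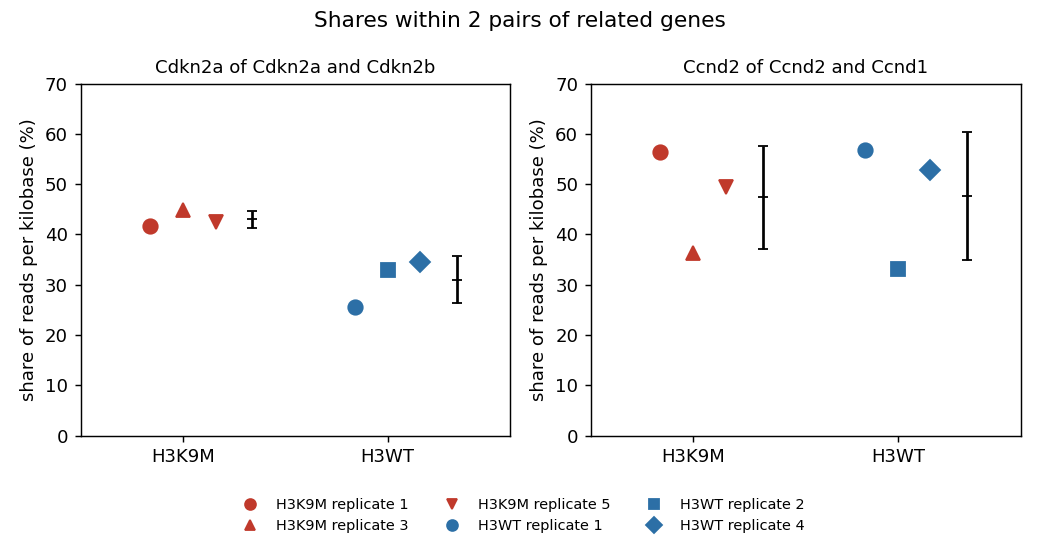
Share of Cdkn2a within Cdkn2a and Cdkn2b (left) and of Ccnd2 within Ccnd2 and Ccnd1 (right), in percent of reads per kilobase, for each library, with the group mean and SD as a bar beside the points. The Cdkn2a share is 41.7% to 44.9% in H3K9M and 25.7% to 34.4% in H3WT, while the Ccnd2 shares of the groups overlap.

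The 2 inhibitors of the CIP/KIP family had group means in opposite orders, neither past the adjusted threshold. Cdkn1a (chr17:29090976-29100727, plus strand) encodes p21, the best known transcriptional target of p53. The table of windows holds 2 of its starts, and the sequence before the upstream one is shown because its letters match the p53 motif (RefSeq, GRCm38.p6, plus strand, up to the first transcribed base):
Cdkn1a upstream start, chr17:29090729-29090975: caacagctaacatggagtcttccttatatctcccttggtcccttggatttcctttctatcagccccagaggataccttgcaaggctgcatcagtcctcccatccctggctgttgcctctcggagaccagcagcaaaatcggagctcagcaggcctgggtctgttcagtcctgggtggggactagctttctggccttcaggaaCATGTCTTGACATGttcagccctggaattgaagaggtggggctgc
Capitals mark CATGNNNNNNCATG, a pair of CATG cores of the p53 motif at the spacing of a full site, searched on both strands. The match begins 2838 bases before the downstream start, and such a pair lies within 250 bases before 0.49% of all annotated starts. None of the other windows of the members present in the table, those of Cdkn2a, Cdkn2b, Cdkn2c, Cdkn1b, Mdm2, Trp53 and the downstream start of Cdkn1a, held it. Rb1, Ccnd1 and Ccnd2 had no window.

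Cdkn1a had 335, 517 and 229 CPM in replicates 1, 3 and 5 of H3K9M. The H3WT libraries, replicates 1, 2 and 4, had 255, 244 and 277 CPM. H3K9M held both the highest and the lowest library, and the H3WT libraries lay close together between them. The means were 360.4 ± 145 and 258.5 ± 16.8 CPM (SD, n = 3 each), and the log2 fold change was 0.48 (SE 0.27, edgeR adjusted p 0.505). It was 0.14 without H3K9M replicate 3. Cdkn1b (chr6:134920401-134925513) encodes p27, an inhibitor of cyclin E and CDK2 that is abundant in resting cells. It had 41.0, 25.5 and 38.0 CPM in H3K9M and 57.5, 40.4 and 62.3 CPM in H3WT. Only H3WT replicate 2 fell within the range of the H3K9M libraries. The means were 34.8 ± 8.24 and 53.4 ± 11.5 CPM, and the log2 fold change was -0.62 (SE 0.23, unadjusted p 0.0280, edgeR adjusted p 0.353). This was the smallest p of the 10 members, and it ranked 1094 among all tested genes. Leaving out H3K9M replicate 3 gave -0.42, and leaving out H3WT replicate 2 gave -0.77.

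Trp53 (chr11:69580359-69591873), which encodes p53, was the steadiest member. It had 121, 111 and 124 CPM in H3K9M replicates 1, 3 and 5 and 130, 116 and 100.2 CPM in H3WT replicates 1, 2 and 4. The log2 fold change was 0.04 (SE 0.13, edgeR adjusted p 0.940), with an interval (95%) of 0.833-fold to 1.26-fold. p53 is controlled mostly at the protein level, which RNA counts do not measure. Mdm2 (chr10:117688875-117710758) encodes the ubiquitin ligase that degrades p53 and is itself a p53 target. It had 103, 199 and 101.2 CPM in H3K9M and 106, 135 and 119 CPM in H3WT. One library, H3K9M replicate 3, stood above the other 5. The log2 fold change was 0.16 (SE 0.27, edgeR adjusted p 0.857) and turned to -0.22 without that library. Rb1 (chr14:73183673-73325822) encodes the pocket protein that holds E2F factors. It had 18.6, 20.2 and 15.8 CPM in H3K9M and 14.3, 8.98 and 16.7 CPM in H3WT. The log2 fold change was 0.45 (SE 0.27, edgeR adjusted p 0.525), and 0.24 without H3WT replicate 2. Exons of Rb1 overlap those of Lpar6 and Rcbtb2 on the opposite strand, and the strand setting of the counts is not given, so some of its reads could belong to them.

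The 2 cyclins, the mitogen-responsive partners of CDK4 and CDK6, had nearly equal group means but behaved differently between libraries. Ccnd1 (chr7:144929931-144939925) had 362, 939 and 447 CPM in replicates 1, 3 and 5 of H3K9M. The H3WT libraries, replicates 1, 2 and 4, had 368, 818 and 465 CPM. One library in each group, H3K9M replicate 3 and H3WT replicate 2, lay well above the rest, and the other 4 were close together. The log2 fold change was 0.08 (SE 0.44, edgeR adjusted p 0.963). It was -0.43 without the former library, 0.50 without the latter and -0.03 without both. Cdk6, a kinase partner of the D-type cyclins, was likewise highest in those 2 libraries, with 41.7, 78.0 and 33.1 CPM in H3K9M and 14.3, 57.4 and 15.7 CPM in H3WT. Ccnd2 (chr6:127125162-127152193) had 796, 905 and 738 CPM in H3K9M and 821, 685 and 884 CPM in H3WT, so that it was highest in H3K9M replicate 3 and lowest in H3WT replicate 2. Its log2 fold change was 0.03 (SE 0.15, edgeR adjusted p 0.962), with an interval of 0.804-fold to 1.30-fold. Exons of Ccnd1, Ccnd2 and Cdkn1a overlap other annotated genes on the opposite strand, and Trp53 shares 353 bases at 97.7% identity with the pseudogene Trp53-ps, so a part of these counts is uncertain.

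**Figure D3:**
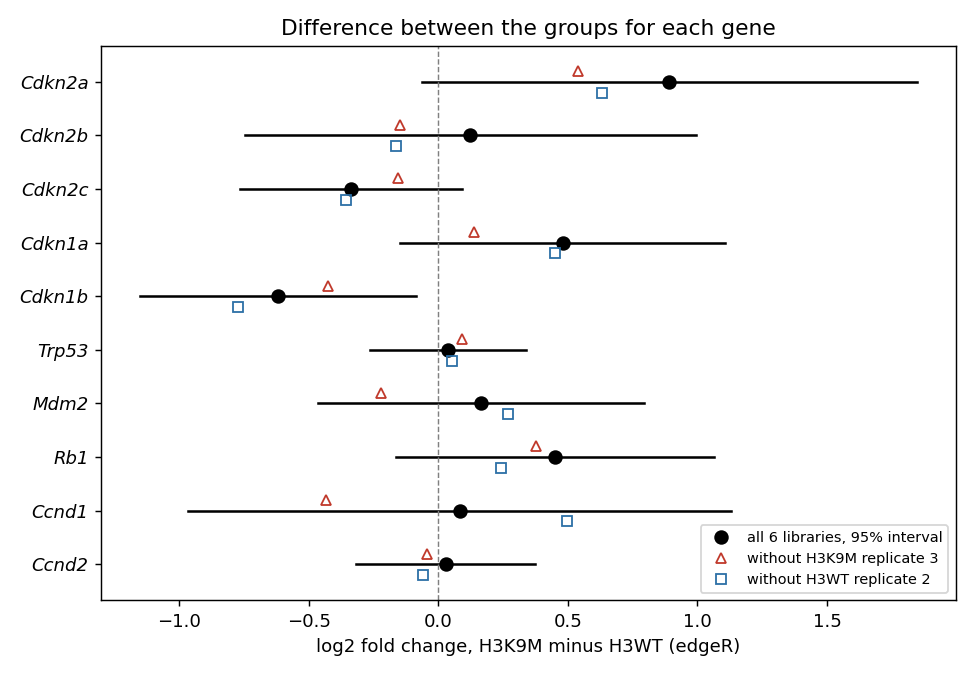
Log2 fold change of each gene, H3K9M minus H3WT, from the edgeR fit of all 6 libraries with its 95% interval (black), without H3K9M replicate 3 (red triangles) and without H3WT replicate 2 (blue squares). The interval of Cdkn1b alone lies on one side of 0, and the points of Ccnd1 are at -0.43 and 0.50 without one or the other library.

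H3K9M replicate 3 stood apart in most of these genes. It had the highest value of 7 members (Cdkn2a, Cdkn2b, Cdkn1a, Mdm2, Rb1, Ccnd1 and Ccnd2) and the lowest of Cdkn2c and Cdkn1b. Over all tested genes it was highest in 20.9% and lowest in 19.99%. H3WT replicate 2 was lowest for 4 members, Cdkn2a, Cdkn2b, Rb1 and Ccnd2, against 21.0% of all tested genes. Of the 5 skeletal muscle markers of 8 that passed the filter, 4 were highest in H3K9M replicate 3, and Tnnt1 was highest in H3K9M replicate 1. They summed to 151, 214 and 20.8 CPM in replicates 1, 3 and 5 of H3K9M, and to 12.8 to 31.7 CPM in the H3WT libraries. Myod1, the factor that starts the muscle programme, had 19.5, 57.0 and 4.29 CPM in H3K9M and was at 0 in H3WT replicates 1 and 4 and at 1.04 CPM in replicate 2. In 3 of the 5 all H3K9M libraries lay above all H3WT libraries (10.7% of all tested genes). These were Myod1, Myh3 and Des, at log2 fold changes of 6.20, 5.88 and 3.80 (edgeR adjusted p 0.244, 0.249 and 0.255). In H3WT replicates 1, 2 and 4, Myod1 had 0, 20 and 0 counts and Myh3 had 12, 0 and 0. Both passed the filter only through the H3K9M libraries, where they were high. Their separation was thus largely fixed by the filter, and the share over all tested genes is no fair measure for them. The list median also depends on which genes passed. The list median was 3.80, and 3.33 without H3K9M replicate 3, 5.3 without H3WT replicate 2 and 4.18 without both, over the genes then tested. The part of this signal in the values of the members was not tested.

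Other genes of the pathway were then read by list, without the members. The lists were drawn from general knowledge, but with earlier results of these data known. None of their genes passed the adjusted threshold. Of the 26 p53 target genes, 21 had a positive log2 fold change, with a median of 0.23. At an unadjusted p under 0.05, 6 of 26 were higher in H3K9M, against 6.42% of all tested genes, and 0 were lower, against 5.77%. In 5 of 26 all H3K9M libraries lay above all H3WT libraries, against 10.7% of all tested genes. H3K9M replicate 3 was highest for 14 of the 26 and lowest for 0. Without it, 3 of 26 were higher at that unadjusted p (5.33% of all genes) and the median was 0.08. Without H3WT replicate 2 5 of 26 were higher (9.09%) and 1 was lower (8%), and without both libraries 4 were higher (9.1%) and 1 was lower (9.29%). Gadd45a, a stress-induced growth arrest gene, had 28.3, 41.7 and 29.8 CPM in the H3K9M libraries against 10.9, 14.0 and 16.8 CPM in those of H3WT (log2 fold change 1.26, SE 0.24, edgeR adjusted p 0.170). Plk2, a kinase of the polo family, had 123, 129 and 133 CPM against 78.4, 108 and 85.8 CPM (log2 fold change 0.50, edgeR adjusted p 0.255). Ddit4, which restrains mTOR signalling, had a log2 fold change of 0.60 (edgeR adjusted p 0.280), and Bax, which promotes apoptosis, 0.39 (0.348).

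Of 15 genes that act on p53 or Mdm2, 3 were lower at an unadjusted p under 0.05 (5.77% of all tested genes) and 0 were higher (6.42%). In 6 the groups did not overlap with H3K9M lower (8.68%), and in 1, Atr, with H3K9M higher (10.7%). The 3 were the kinase gene Hipk2 (log2 fold change -0.54) and the acetyltransferase genes Ep300 (-0.40) and Crebbp (-0.37), with edgeR adjusted p of 0.226, 0.280 and 0.306. Atr, a kinase of the DNA damage response, had 0.32 (0.459). The median of this list was -0.07. At that p 3 genes were lower without H3K9M replicate 3 (4.43% of all tested genes), without H3WT replicate 2 (8%) and without both (9.29%). In these settings 0 were higher (5.33%, 9.09% and 9.1%).

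Of 29 replication and mitosis genes, 25 had a negative log2 fold change, with a median of -0.18. At an unadjusted p under 0.05 there were 0 in either direction, against 12.2% of all tested genes. H3K9M replicate 3 was the lowest library for 20 of the 29, and the median was -0.0040 without it and -0.04 without H3WT replicate 2. Without both it turned to 0.08, with 1 gene then higher at an unadjusted p under 0.05 (9.1% of all tested genes). Mki67, which marks dividing cells, had 532, 302 and 623 CPM in replicates 1, 3 and 5 of H3K9M. The H3WT libraries, replicates 1, 2 and 4, had 675, 625 and 409.8 CPM. H3K9M replicate 3, with the most Cdkn1a and Cdkn2a, had the least Mki67. H3WT replicate 4, with the most of both within its group, had the least in that group. H3K9M replicate 1 ranked 2 of 6 for both inhibitors, but its Mki67 of 532 CPM was above that of H3WT replicate 4. The inhibitors Cdkn1b and Cdkn2c were lowest in H3K9M replicate 3, where Mki67 was lowest too. A relation between these genes was not tested. Cdc6 and Tk1, genes of replication and nucleotide supply, had the smallest p of this list along with Mcm4 and Pola1, at log2 fold changes of -0.60, -0.50, -0.17 and -0.28 (edgeR adjusted p 0.465 to 0.642). Among 10 E2F and DP genes only E2f1 had an unadjusted p under 0.05 (log2 fold change -0.66, edgeR adjusted p 0.361), against 12.2% of all tested genes. Without H3K9M replicate 3 the list had 0 lower (4.43% of all tested genes) and 0 higher (5.33%) at that p. It had 1 lower without H3WT replicate 2 (8%). Without both it had 1 lower (9.29%) and 1 higher (9.1%). E2f6, E2f3 and E2f7 had log2 fold changes of -0.25, -0.20 and -0.36. The third D-type cyclin, Ccnd3, had 111, 88.8 and 103.8 CPM in the H3K9M libraries against 127, 177 and 123 CPM in those of H3WT (log2 fold change -0.49, SE 0.17, edgeR adjusted p 0.320). It was the only D-type cyclin whose groups did not overlap, and its unadjusted p was under 0.05. Of all tested genes 8.68% did not overlap with H3K9M lower, and 5.77% were lower at that p. Of the 6 genes in this list of cyclins and CDKs, Ccnd3 included, 0 were lower at that p without H3K9M replicate 3 (4.43% of all tested genes). The same held without H3WT replicate 2 (8%) and without both (9.29%). In each of the last 2 settings 1 was higher (9.09% and 9.1%). Cdk4, Ccne1 and Cdk2 had log2 fold changes of -0.06, -0.34 and -0.14 (edgeR adjusted p 0.893, 0.693 and 0.851). Of 4 other brakes on the cycle, Cdkn1c, which encodes p57, had 6.97, 21.1 and 3.98 CPM in the H3K9M libraries against 19.99, 69.1 and 25.3 CPM in those of H3WT (log2 fold change -1.83, SE 0.76, edgeR adjusted p 0.411). Rbl1, Cdkn2d and Rbl2 had log2 fold changes of -0.25, -0.33 and 0.16 (edgeR adjusted p 0.604 to 0.808). None of the 4 had an unadjusted p under 0.05 (12.2% of all tested genes). At that p 1 was lower without H3K9M replicate 3 (4.43% of all tested genes) and without both libraries (9.29%).

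Of 24 genes known to control the Cdkn2a locus, 2 were lower at an unadjusted p under 0.05 (5.77% of all tested genes) and 0 higher (6.42%). In 5 the groups did not overlap with H3K9M lower (8.68%). One of them was the T-box repressor Tbx3 (log2 fold change -0.79, edgeR adjusted p 0.326). Without H3K9M replicate 3 the list had 0 lower (4.43% of all tested genes) and 0 higher (5.33%) at that p. It had 3 lower (8%) and 1 higher (9.09%) without H3WT replicate 2, and 2 lower (9.29%) and 1 higher (9.1%) without both. Bmi1, a Polycomb subunit known as a repressor of this locus, had 36.3, 43.8 and 40.5 CPM in the H3K9M libraries against 28.6, 28.1 and 37.1 CPM in those of H3WT (log2 fold change 0.36, SE 0.17, edgeR adjusted p 0.428). Pcgf2, its relative, had -0.33 (0.430), and Ezh2, the Polycomb methyltransferase, had 0.03 (0.975).

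Secreted factors of senescent cells mostly had negative log2 fold changes, and none passed the adjusted threshold. Of 28 genes listed, 19 passed the filter, and Il6, Il1a, Il1b, Cxcl2, Ccl8, Csf2, Mmp10, Mmp12 and Areg did not. Of the 19, 17 had a negative log2 fold change. The median was -0.55, and -0.70 without H3K9M replicate 3. At an unadjusted p under 0.05, 6 were lower (5.77% of all tested genes) and 1 was higher (6.42%). Of the 20 genes then tested, 5 were lower without H3K9M replicate 3 (4.43%), 8 without H3WT replicate 2 (8%) and 9 without both (9.29%). Cxcl5, a neutrophil chemokine, had 10.2, 4.59 and 11.99 CPM in the H3K9M libraries against 38.1, 43.3 and 23.7 CPM in those of H3WT (log2 fold change -1.98, SE 0.39, edgeR adjusted p 0.180). Mmp3, a matrix protease, had 0.804, 0.773 and 1.89 CPM against 5.45, 7.63 and 3.004 CPM (log2 fold change -2.20, edgeR adjusted p 0.239). Tnfrsf1b, a TNF receptor, had a log2 fold change of -0.52 (0.269). Igfbp7, a secreted binding protein linked to senescence, was 1 of the 2 with a positive value, with 423, 316 and 381 CPM in the H3K9M libraries against 265, 268 and 173.9 CPM in those of H3WT (log2 fold change 0.66, SE 0.20, edgeR adjusted p 0.266). Nuclear proteins known to be lost in senescence showed no called difference, with log2 fold changes of -0.14 for Lmnb1, 0.04 for Hmgb2 and -0.02 for Hmgb1 (edgeR adjusted p 0.890 to 0.971). Lmnb1, which encodes lamin B1, was lowest in H3K9M replicate 3, at 43.6 CPM against 59.8 to 95.2 CPM in the other 5.

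**Figure D4:**
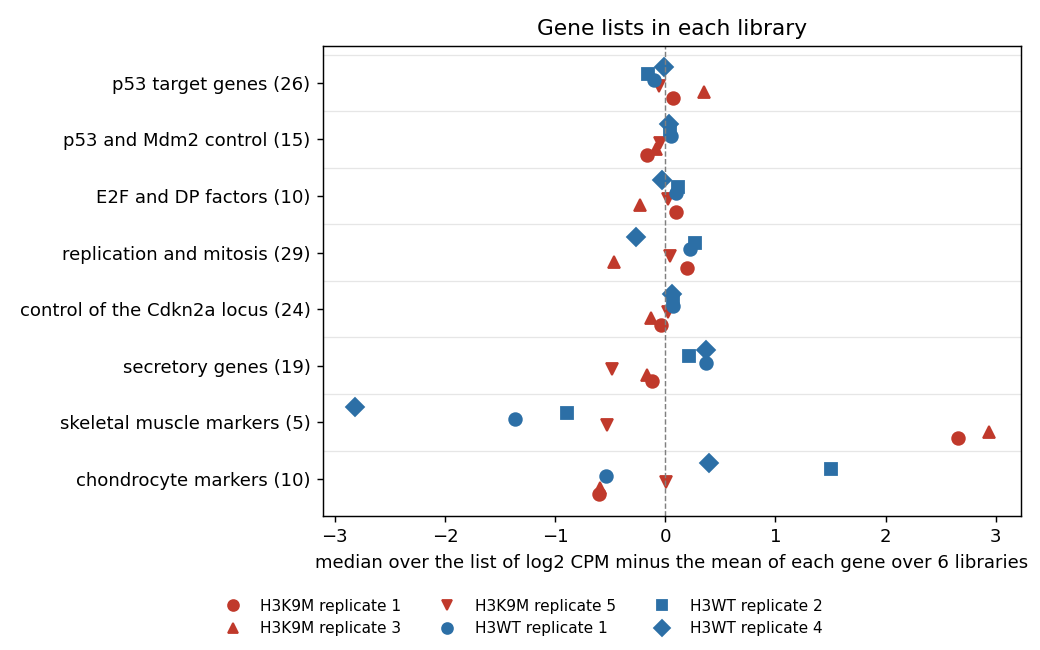
Median over each gene list of log2 CPM minus the mean of that gene over the 6 libraries (x axis, log2), for each library, with the number of genes tested in brackets. H3K9M replicate 3 (red upward triangle) has the highest median for p53 target genes and the lowest for replication and mitosis genes, and the secretory genes have a lower median in each H3K9M library than in each H3WT library.

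The genes whose profile over the 6 libraries lay nearest to that of Cdkn2a were Trim12c, Mir8104 and Vcam1, with root-mean-square differences in centred log2 CPM of 0.09, 0.22 and 0.23, where the median gene was at 0.76. For Cdkn1a they were Nek4, Psrc1 and Nudt22, at 0.10, 0.10 and 0.11, where the median gene was at 0.50. Among the members, Rb1 was nearest to Cdkn2a (0.36, place 86 of all tested genes), followed by Cdkn2b (0.42, place 223). Mdm2 was nearest to Cdkn1a (0.25, place 253). These distances over 6 libraries are a description only.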

How the data were processed

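The deposited table holds, for each gene symbol and library, the number of reads counted by the authors. These raw counts are whole numbers with unequal totals. Per the submitters' processing notes, HISAT2, featureCounts and DESeq2 were used with the mm10 build (GRCm38). Versions, annotation and strand setting are not given in the sources used here. No columns belonged to other samples.

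The analysis used edgeR 4.0.16 in R 4.3.3 (filterByExpr, TMM, glmQLFit with robust estimation, glmQLFTest) over all 6 libraries with genotype as the only term, tested on simulated data beforehand. The SE is the log2 fold change divided by the square root of F. Positions, overlaps and the longest transcript used for levels per kilobase come from GENCODE M21, similar transcripts from blastn 2.17.0 (at least 90% identity over 200 bases), and windows before starts from RefSeq. Shares within a pair of genes were compared by an exact permutation test over libraries. Alternatives used DESeq2 1.42.0, limma 3.58.1 (voom), other scalings and filters, and fewer libraries. The counts of list genes without 1 or both outlying libraries were added after the data were seen. From each list the genes with the smallest p, up to 4, were named, with 7 genes chosen by symbol, of which Il6 was not tested. Of the genes this rule names, 2 are not reported here. The members and lists were chosen with earlier results of these data known.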

Additional observations from a re-analysis of the deposited data

How the results depend on the processing

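In 14 alternatives for each of the 10 members (140 fits), 0 passed an adjusted p of 0.05, the lowest being 0.0904 (Cdkn1b without both outlying libraries). Cdkn2a, Cdkn2c, Cdkn1a, Cdkn1b and Rb1 kept their direction in all of them. Leaving out 1 library at a time turned the log2 fold change of Cdkn2b (-0.16 to 0.37), Trp53 (-0.054 to 0.13), Mdm2 (-0.22 to 0.34), Ccnd1 (-0.43 to 0.50) and Ccnd2 (-0.06 to 0.11). Single values that turned were Cdkn2b -0.15 without H3K9M replicate 3, Ccnd1 -0.14 without H3WT replicate 1 and -0.02 without H3WT replicate 4, and Ccnd2 -0.04 without H3K9M replicate 3. Without both H3K9M replicate 3 and H3WT replicate 2 they were Cdkn2b -0.45, Mdm2 -0.13, Ccnd1 -0.03 and Ccnd2 -0.14. The difference in the Ccnd2 share was -0.24 points with all libraries and ran from -7.50 to 5.30 when 1 was left out (4.38 without H3WT replicate 1, 2.39 without H3WT replicate 4). The Cdkn2a share kept its direction throughout.

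The number of genes past the threshold was 0 with all libraries and edgeR. It was 390 with DESeq2, 36 with every gene that had a count, 302 without both outlying libraries and 1 at an adjusted p under 0.10, and ran from 0 to 91 when 1 library was left out, the value being 2 when H3K9M replicate 3 was absent and 91 when H3WT replicate 2 was. The cause was not tested. Of 182 list medians under an alternative, 152 moved by less than the spread between replicates and 12 turned in sign. No paired analysis was possible because the groups share only replicate number 1. A member had at least 173 counts in each library, and each group had 3 libraries.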
